A study of Homo sapiens with 30 samples.

Results

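MV4-11 and Molm-14 are established human acute myeloid leukemia (AML) cell lines that carry the same kind of driver lesions, a fusion of KMT2A (MLL) and an internal tandem duplication of the FLT3 receptor gene (FLT3-ITD), but differ in the fusion partner: KMT2A::AFF1 in MV4-11 and KMT2A::MLLT3 in Molm-14. The 12 libraries described here are the empty vector (EV) controls of both lines, of 30 libraries in all, and they answer how the transcriptomes of the lines differed before any treatment was applied. They came from 2 experiments that were counted into separate tables. In the overexpression series, 3 MV4-11 EV and 3 Molm-14 EV libraries were made from cells with a lentiviral vector with GFP alone, as controls for cells that overexpress the microRNA miR-1. In the knockout series, 3 EV libraries of each line carried a nontargeting control of the lentiCRISPRv2 vector with a GFP marker, as controls for cells in which MPC1, a subunit of the mitochondrial pyruvate carrier, was targeted. All cells were grown in RPMI medium with serum. Each line was compared with the other within each table, and a gene was kept as a difference between the lines only where it passed the test in the same direction in both tables. Genes on the X and Y chromosomes were left out. Libraries of miR-1-overexpressing (OE) and MPC1-targeted (KO) cells of the same lines, and the EV libraries of THP-1, a monocytic AML line with KMT2A::MLLT3 and no FLT3-ITD, served for reference.

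KMT2A is a histone methyltransferase that keeps HOX genes active in blood stem and progenitor cells. In KMT2A-rearranged leukemia its amino-terminal part is joined to a partner of the transcription elongation machinery, such as AFF1 or MLLT3, and the fusion sustains transcription of HOXA genes and MEIS1, which block differentiation. FLT3-ITD is a constitutively active receptor tyrosine kinase that signals through STAT5 and the RAS-MAPK pathway. The comparison has 1 line per fusion, so within it differences that go with the fusion partner and differences that go with the individual line cannot be told apart.

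The EV libraries held 15961275 to 20219790 counts in the overexpression series, against 6200015 to 9106478 for the knockout series, so that 3 counts corresponded to 0.145 to 0.189 and to 0.338 to 0.504 CPM. CPM, the count of a gene relative to the library's total, uses library sizes scaled by the trimmed mean of M-values and is compared here between libraries of 1 table only. Mitochondrially encoded genes took 2.89 to 4.24% of the counts in the overexpression series, against 0.177 to 0.452% in the other. MPC1, the targeted gene of the knockout series, was at 53.7 to 58.3 CPM in MV4-11 EV against 23.5 to 26.03 CPM in MV4-11 KO, and at 72.9 to 80.0 CPM in Molm-14 EV against 33.2 to 41.0 CPM in Molm-14 KO, so every KO library was below every EV library of its line. All 12 replicate pairs differed by more than sampling noise, with chi-square values per degree of freedom from 2.33 to 12.5. The largest of these was between replicates 2 and 3 of MV4-11 EV in the overexpression series, and replicate 3 of that group stood apart in several gene groups described here. Both lines carried the leukocyte antigen PTPRC (CD45) and the myeloid antigen CD33 in every library, while the 13 epithelial, stromal, endothelial and hepatic markers summed to at most 1.80 CPM in any EV library and none of them passed the filter.

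Most of the transcriptome differed between the lines at a false discovery rate (FDR) of 5%. MV4-11 EV and Molm-14 EV differed in 11003 of 16958 genes (64.9%) in the overexpression series, of which 5539 (32.7%) were higher and 5464 (32.2%) were lower in MV4-11, and in 8625 of 13899 genes (62.1%) in the knockout series, 4175 (30.0%) higher and 4450 (32.0%) lower (edgeR quasi-likelihood test, Benjamini-Hochberg adjusted). Among tested genes listed in both tables, the CPM ranges of the groups did not overlap for 11630 of 16627 genes (69.9%) in the overexpression series. In the knockout series they did not overlap for 8916 of 13899 (64.1%). Of the 13163 genes tested in both tables, 3386 (25.7%) were higher in MV4-11 in both and 3574 (27.2%) were lower in both, together 52.9%, whereas 156 (1.19%) passed in opposite directions. With a difference of at least 2-fold in both tables, 2661 genes (20.2%) remained, 1453 higher (11.0%) and 1208 lower (9.18%). From here on, "higher" and "lower" without a qualifier mean a gene that passed in both tables in that direction in MV4-11, and pairs of log2 fold changes are MV4-11 over Molm-14 in the overexpression and then the knockout series. The median over all genes tested was 0.0041 and -0.0046 on this scale, and the counts of each gene list are to be read against the 25.7% and 27.2% of all tested genes. The 31 lists hold 723 genes off the X and Y chromosomes, of which 559 passed the filter and were tested in both tables. List counts are over the tested members. For a gene with 0 counts in all 3 libraries of a line the fold is a lower bound, set at 3 counts per library, and with 1 to 3 counts in all it is a ratio with its exact Poisson interval, which covers counting error only.

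**Figure D1:**
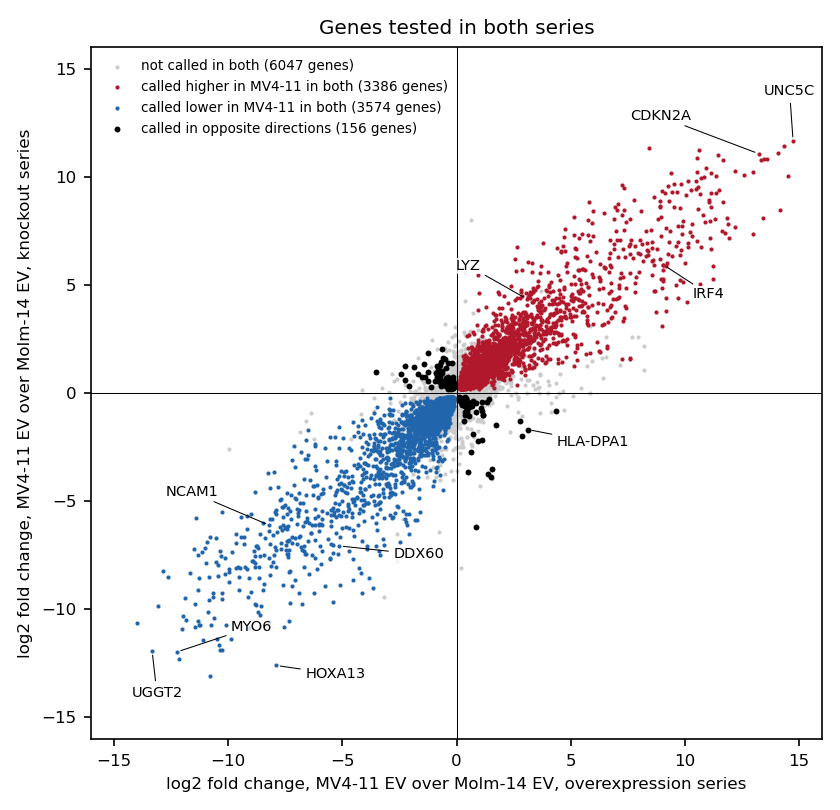
Log2 fold change of MV4-11 EV over Molm-14 EV for each of the 13163 genes tested in both tables, in the overexpression series (horizontal axis) and the knockout series (vertical axis); colors mark genes past an FDR of 5% in both tables in the same direction (6960) or in opposite directions (156). Fitted values of genes at or near 0 counts in 1 line depend on the prior count. Most points lie along the diagonal, with a Pearson correlation of 0.910.

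The fold changes of the tables had a Pearson correlation of 0.910 over the 13163 genes, as a description, since genes are not independent and the lines are shared. The tables share no library but share both lines, so they repeat 1 pair of lines, and the labels do not say whether libraries of a group came from separate cultures, so p-values measure the spread between these libraries. Of the 9321 genes that differed in the overexpression series and were tested in the knockout series, 74.7% passed in the same direction there, and of the 8450 genes in the reverse case 82.4% did. In the OE and KO libraries, whose line contrasts were not used to choose these genes but which shared the filter, the scaling and the estimate of spread with the EV libraries, 6845 of the 6960 genes (98.3%) had the same sign in both contrasts of MV4-11 with Molm-14, and 5872 (84.4%) passed the FDR in both with that sign, where 65.2% of all genes passed in the OE contrast (32.9% higher and 32.3% lower) and 60.4% in the KO contrast (30.0% higher and 30.4% lower). The shares of all genes are for 1 contrast each, and the share that passed in both with 1 sign is not given here.

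The genes of the KMT2A complex and its fusion partners included the partner gene that distinguishes the lines. MLLT3, the transcriptional elongation factor fused to KMT2A in Molm-14, was lower in MV4-11. It was measured at 1.33, 1.21 and 1.47 CPM in MV4-11 EV against 25.6, 25.1 and 24.3 CPM in Molm-14 EV in the overexpression series, and 1.74, 2.83 and 2.47 CPM against 20.3, 27.9 and 22.9 CPM in the knockout series. MV4-11 was far below Molm-14 in every library (log2 fold changes -4.22 ± 0.16 and -3.36 ± 0.20, FDR = 4.89e-15 and 4.18e-14), and THP-1 EV, which has the same fusion as Molm-14, was at 12.7 ± 2.07 CPM (SD, n = 3). KMT2A itself was measured at 369, 389 and 349.7 CPM in MV4-11 EV against 131, 130.5 and 131 CPM in Molm-14 EV in the overexpression series, and 137, 223 and 175 CPM against 65.9, 119 and 79.4 CPM in the knockout series. It was higher in MV4-11 without overlap (log2 fold changes 1.4999 ± 0.05 and 1.01 ± 0.28, FDR = 7.12e-16 and 0.00695). AFF1, the partner in MV4-11, was at 376, 413 and 358 CPM in MV4-11 EV against 558, 539 and 549 CPM in Molm-14 EV in the overexpression series, and 151, 224 and 206 CPM against 161, 297 and 191 CPM in the knockout series, and it passed in the overexpression series alone (log2 fold changes -0.52 ± 0.05 and -0.17 ± 0.25, FDR = 2.42e-08 and 0.593). Counts per gene do not separate the normal from the fused transcript. ELL, an elongation factor, was also higher at 0.71 and 0.79, and PSIP1 (LEDGF), which tethers the KMT2A complex to chromatin, was lower at -0.36 and -0.28. Of the 10 genes in this list 2 were higher and 2 lower, with medians of 0.03 and -0.03.

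The HOXA genes, the main targets of KMT2A fusions, were for the most part expressed less in MV4-11. HOXA9, the member most tied to leukemia, was expressed in both lines. It was at 55.8, 53.8 and 56.5 CPM in MV4-11 EV against 70.9, 70.2 and 62.6 CPM in Molm-14 EV in the overexpression series, and 35.8, 41.2 and 41.2 CPM against 47.6, 48.7 and 53.01 CPM in the knockout series. MV4-11 was lower by a small margin (log2 fold changes -0.29 ± 0.07 and -0.34 ± 0.10, FDR = 0.000649 and 0.00541). HOXA10 was lower at -0.65 and -0.89. HOXA7 had counts of 0, 0 and 0 in MV4-11 EV against 172, 174 and 174 in Molm-14 EV in the overexpression series and 0, 0 and 0 against 26, 35 and 27 in the knockout series, at least 59.3-fold and 8.55-fold lower in MV4-11. HOXA13, the most 5' gene of the cluster, had counts of 9, 10 and 7 in MV4-11 EV against 1746, 1953 and 2006 in Molm-14 EV in the overexpression series and 0, 0 and 0 against 614, 1020 and 838 in the knockout series, a log2 fold change of -7.90 in the first table and at least 237-fold lower in the second. These genes were close to silent in MV4-11 EV. HOXA5 had counts of 2, 2 and 3 in MV4-11 EV against 344, 365 and 407 in Molm-14 EV in the overexpression series and 0, 0 and 1 against 62, 104 and 76 in the knockout series. HOXA6 had counts of 0, 0 and 5 in MV4-11 EV against 255, 260 and 269 in Molm-14 EV in the overexpression series and 0, 0 and 0 against 28, 51 and 46 in the knockout series, and all of its MV4-11 counts were in replicate 3 of the overexpression series, without which the fitted log2 fold change there moved from -7.33 to -11.12. HOXA3 was lower by 391-fold (95% exact Poisson interval 134 to 1895) and at least 6.62-fold. HOXA11 was lower at -4.12 and -6.86.

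MEIS1, the cofactor of HOXA9, was the 1 gene of this program that was higher in MV4-11. It was at 198, 208 and 198 CPM in MV4-11 EV against 129, 144 and 135 CPM in Molm-14 EV in the overexpression series, and 202, 209 and 206 CPM against 145, 143 and 146 CPM in the knockout series, with no overlap (log2 fold changes 0.57 ± 0.06 and 0.51 ± 0.08, FDR = 2.46e-08 and 3.20e-06). Its partner PBX3 and the downstream genes MYB and CDK6 did not pass in both tables (-0.02 and -0.29, 0.16 and -0.01 and -0.02 and 0.24), and the myeloid transcription factor MEF2C was lower (-1.07 and -0.43). In all, 1 of 14 tested genes of the program (16 listed) was higher and 10 were lower, with medians of -1.37 and -1.72. The HOXB cluster pointed the other way, with both tested members of 10 higher. HOXB4, a self-renewal factor of blood stem cells, was at 10.8, 9.94 and 10.6 CPM in MV4-11 EV against 0.189, 0.179 and 0.175 CPM in Molm-14 EV in the overexpression series, and 3.13, 2.15 and 2.00 CPM against 0, 0.225 and 0 CPM in the knockout series. HOXB3 had counts of 104, 153 and 178 in MV4-11 EV against 9, 1 and 5 in Molm-14 EV in the overexpression series and 5, 14 and 13 against 0, 2 and 0 in the knockout series. The knockout counts of Molm-14 for both genes were all in its replicate 2, and without that library the fitted log2 fold changes there moved from 4.54 to 7.11 for HOXB4 and from 3.76 to 6.33 for HOXB3.

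The genes of the LSC17 score, a set of stemness genes used for AML prognosis, had 1 higher and 5 lower of 8 tested (16 listed), with medians of -1.68 and -2.72. When genes with 0 counts were set at their bounds the second median became -1.76. LAPTM4B, DPYSL3, CPXM1, SOCS2 and the DNA methyltransferase DNMT3B were lower (-4.48 and -6.63, -3.02 and -4.14, -3.54 and -2.63, -2.61 and -2.81 and -0.74 and -0.90), and ZBTB46 was higher (4.78 and 4.07). CD34, the best known member, was not among the genes tested in both tables.

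The sharpest differences were genes that 1 line expressed and the other did not. Among 8629 protein-coding genes that averaged 100 counts or more in either line in both tables, 45 had this level in MV4-11 EV and at most 3 counts in every Molm-14 EV library, and 42 had it in Molm-14 EV and at most 3 counts in every MV4-11 EV library. Because the rule that selected them used these counts, their levels are a description. The 45 MV4-11 genes summed to 29927 to 36150 counts per MV4-11 library and 6 to 11 counts per Molm-14 library in the overexpression series. In the knockout series they summed to 15013 to 22074 against 9 to 34. The 42 Molm-14 genes summed to 32147 to 34684 counts per Molm-14 library against 19 to 29 per MV4-11 library, and to 10778 to 16957 against 5 to 17. In the OE and KO libraries, 38 of the 45 and 20 of the 42 met the whole rule again in both series, and 40 and 27 stayed at 3 counts or fewer in the other line.

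UNC5C, a receptor for the guidance cue netrin (ENSG00000182168, chromosome 4, 95162504 to 95549206, minus strand), ranked first in the MV4-11 set by the lower of its mean CPM in the tables, a scale not corrected for gene length. It was at 181, 179 and 222 CPM in MV4-11 EV against 0, 0 and 0 CPM in Molm-14 EV in the overexpression series, and 172, 221 and 207 CPM against 0, 0 and 0.132 CPM in the knockout series. No count was found in Molm-14 EV in the overexpression series, where MV4-11 was at least 1024-fold higher, and 1 count in the knockout series, where the ratio was 4485-fold (95% exact Poisson interval 805 to 177151). CDKN2A (ENSG00000147889, chromosome 9, 21967752 to 21995301, minus strand) encodes the cell cycle inhibitor p16INK4a and the p53 activator p14ARF. It was at 69.7, 65.1 and 70.8 CPM in MV4-11 EV in the overexpression series and 37.3, 37.3 and 39.2 CPM in the knockout series, with 0 counts in all 6 Molm-14 EV libraries. The difference was at least 362-fold in the overexpression series and at least 75.1-fold in the knockout series (FDR = 4.79e-18 and 2.62e-15). C3orf14, a gene of unclear function, had 0 counts in Molm-14 as well and reached 19.9, 23.6 and 16.4 and 39.8, 33.0 and 35.8 CPM in MV4-11.

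Other genes of the MV4-11 set were MYEF2, a transcriptional repressor, at 22.9, 21.99 and 24.6 and 26.1, 36.4 and 29.8 CPM, IGF1, the insulin-like growth factor, at 9.96, 15.05 and 5.77 and 15.2, 26.1 and 22.05 CPM, and the imprinted neighbors on chromosome 15 NDN and MKRN3, whose MV4-11 means were 18.7 ± 0.114 and 32.8 ± 0.459 CPM in the overexpression series (SD, n = 3). All 4 had 0 counts in every Molm-14 EV library. PITX1, a homeodomain transcription factor, was among the 10 protein-coding genes with the largest difference but had a few counts in Molm-14. It was at 538, 475 and 542 CPM in MV4-11 EV against 0.189, 0.598 and 0.175 CPM in Molm-14 EV in the overexpression series, and 378, 331 and 388 CPM against 0.168, 0 and 0.264 CPM in the knockout series.

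ZNF521 (ENSG00000198795, chromosome 18, 25061924 to 25352190, minus strand), a zinc finger cofactor of hematopoietic progenitors, ranked first in the Molm-14 set by the same measure. It was at 178, 173 and 174 CPM in Molm-14 EV in the overexpression series and 184, 204 and 192 CPM in the knockout series, against 1, 1 and 1 and 2, 0 and 0 counts per library in MV4-11 EV. MYO6 (ENSG00000196586, chromosome 6, 75749201 to 75919537, plus strand), the actin motor that moves toward minus ends, was at 125, 125 and 119 and 57.5, 87.7 and 67.0 CPM in Molm-14, and MV4-11 was lower by a ratio of 6761-fold (95% exact Poisson interval 1214 to 267054) in the overexpression series and at least 153-fold in the knockout series. UGGT2 (ENSG00000102595, chromosome 13, 95801580 to 96053482, minus strand), which reglucosylates misfolded glycoproteins in the endoplasmic reticulum, had 0 counts in all 6 MV4-11 EV libraries and 78.3, 68.1 and 73.2 and 68.1, 73.6 and 65.0 CPM in Molm-14.

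SLC7A2, a transporter of cationic amino acids, was at 140.0, 141 and 140.2 and 149, 154 and 155 CPM in Molm-14 and had 3, 1 and 0 and 0, 0 and 0 counts in MV4-11 EV. PTPN13, a tyrosine phosphatase, was lower by at least 653-fold and by 1897-fold (95% exact Poisson interval 525 to 15661). CPPED1, a phosphatase, CSRP2, a LIM domain protein, and LPAR3, a receptor for lysophosphatidic acid, had 0 counts in all 6 MV4-11 libraries. TNFRSF19, a cell surface receptor, and DACH1, a transcriptional corepressor, completed the 10 lower genes with the largest difference. TNFRSF19 had counts of 0, 1 and 0 in MV4-11 EV against 921, 923 and 910 in Molm-14 EV in the overexpression series and 1, 0 and 0 against 1008, 1557 and 1274 in the knockout series, and DACH1 had counts of 7, 0 and 1 in MV4-11 EV against 5708, 6085 and 6294 in Molm-14 EV in the overexpression series and 0, 1 and 1 against 791, 2138 and 1308 in the knockout series. Other Molm-14 genes were the fetal RNA binding protein IGF2BP3, the chromatin protein HMGA2, the orphan receptor NR2F1, the G protein subunit GNA11 and the desmosomal cadherin DSG2.

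In THP-1 EV, 24 of the 45 MV4-11 genes had a mean of at least 100 counts and 11 had at most 3, and of the 42 Molm-14 genes 14 and 9 did. UNC5C was at 84.6 ± 9.45 CPM and ZNF521 at 245 ± 10.6 CPM in THP-1 (SD, n = 3), so the line that shares the fusion partner with Molm-14 expressed a gene of each set.

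**Figure D2:**
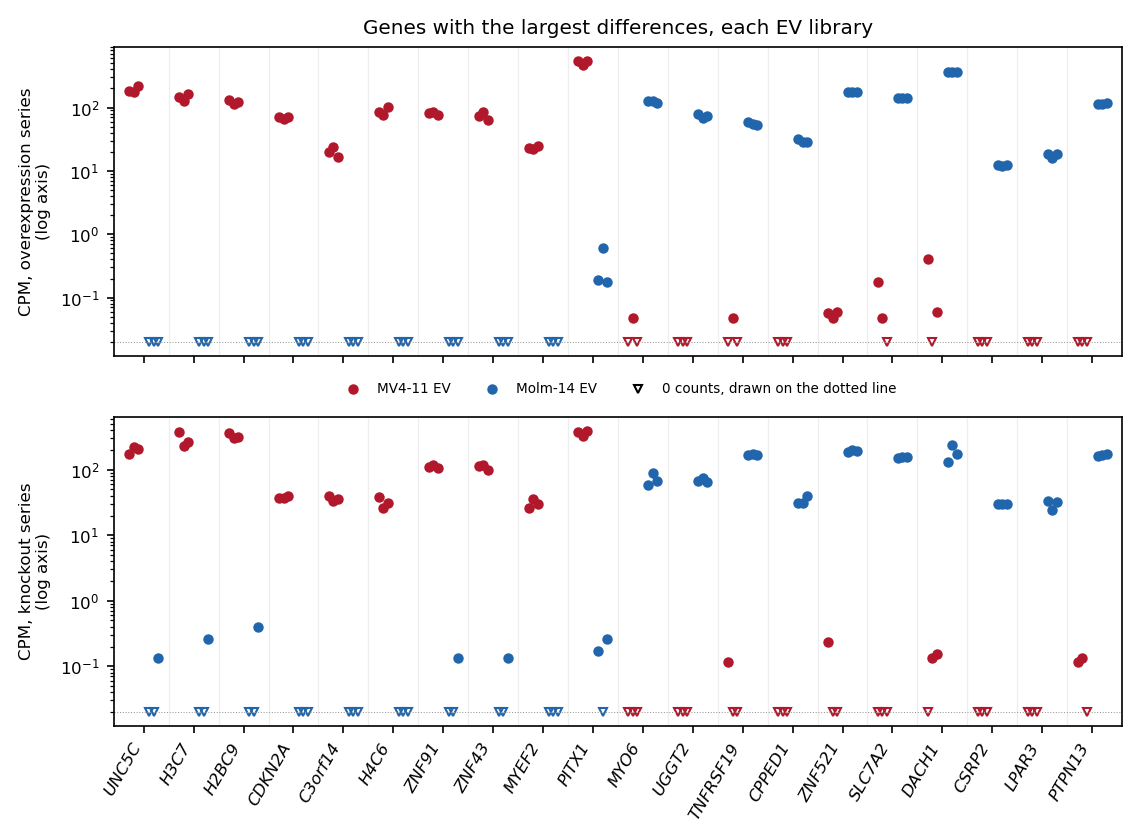
CPM in each of the 12 EV libraries on a log axis for the 10 protein-coding genes per direction with the largest differences between the lines, with 1 point per library, 3 per line and table (overexpression series above, knockout series below), and libraries with 0 counts drawn as triangles on the dotted line. The points of the lines are apart for each gene, since the choice of genes required it.

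Of the 45 genes of the MV4-11 set, 17 lie on chromosome 19 and 16 of these encode zinc finger proteins, while 3 of the 42 Molm-14 genes lie on that chromosome. KRAB zinc finger proteins, which form clusters on chromosome 19, bind and silence transposable elements. ZNF91, a repressor of retroelements of the SVA family, was at 81.6, 85.2 and 76.1 CPM in MV4-11 EV against 0, 0 and 0 CPM in Molm-14 EV in the overexpression series, and 111, 118 and 105 CPM against 0, 0 and 0.132 CPM in the knockout series. MV4-11 was at least 428-fold higher in the overexpression series and higher by 2492-fold (95% exact Poisson interval 447 to 98431) in the knockout series. ZNF43 was at 73.1, 85.1 and 63.0 and 114, 116 and 99.3 CPM in MV4-11. These genes are close paralogs, so how the counting shared reads among them is uncertain. The first bases upstream of 9 of them are shown because they have a stretch in common. The RefSeq table of promoters (GRCh38.p14, 250 bases before to 50 after each start) held 15 of the 16, and 9 of the 15 have the letters GGCTTCCGG, in capitals, ending 11 to 17 bases before the annotated start of transcription.
ZNF91, chr19:23395472-23395501, minus strand: gggcGGCTTCCGGgatgtggctgggccttt
ZNF43, chr19:21836183-21836212, minus strand: gggcGGCTTCCGGgatgtggcggggccttt
ZNF254, chr19:24087157-24087186, plus strand: tggacaaagcGGCTTCCGGgatatggcggg
ZNF737, chr19:20565782-20565811, minus strand: cggaaGGCTTCCGGgttttgcggggccttt
ZNF724, chr19:23250395-23250424, minus strand: cggacagggcGGCTTCCGGgatttggcggg
ZNF726, chr19:23914856-23914885, plus strand: gggcGGCTTCCGGgatttggcggggccttt
ZNF486, chr19:20167184-20167213, plus strand: aggacGGCTTCCGGgtttggcgcggccttt
ZNF66, chr19:20776274-20776303, plus strand: aggacGGCTTCCGGatttggcggggtcttt
ZNF257, chr19:22052454-22052483, plus strand: cggacagggtGGCTTCCGGgtttggcgggt
The motif was chosen after the sequences were seen and was searched on both strands. It was present in 393 of the 27305 gene symbols of the table (1.44%), in 253 of 9295 matched protein-coding genes tested in both tables (2.72%), and in 0 of the 32 matched Molm-14 genes. Among the 194 matched zinc finger genes of chromosome 19 that were tested in both, 20 (10.3%) held it. These include the 9 genes that supplied the letters and were selected as higher in MV4-11, and of the other 11 genes 4 were higher, 1 was lower (ZNF493) and 6 were neither. The 15 of 204 zinc finger genes on other chromosomes with these letters were 3 higher, 6 lower and 6 neither. These letters are a description of the sequence and not evidence of a bound factor.

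The 9 genes shown lie in the stretch chr19:20167214-24129968, which they bound and where all 20 tested protein-coding genes encode zinc finger proteins. The 9 were selected for their low counts in Molm-14, and of the other 11 genes 3 were higher, 4 were lower (ZNF714, ZNF738, ZNF493 and ZNF429) and 4 were neither. The call of ZNF429 in the knockout series (-0.35) was lost without replicate 3 of either line (-0.30 and -0.31). Outside the zinc finger genes the chromosome also held more higher than lower genes. Of 672 other protein-coding genes on chromosome 19, 304 were higher and 77 lower, of its 219 zinc finger genes 101 were higher and 33 lower, and of 244 zinc finger genes elsewhere 56 were higher and 65 lower.

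The medians of several chromosomes were shifted between the lines. Chromosome 13 had 27 higher and 164 lower of 252 tested genes, with medians of -0.71 and -0.68, chromosome 6 had 75 higher and 430 lower of 734 (-0.55 and -0.59), chromosome 10 had 73 higher and 277 lower of 523 (-0.49 and -0.48), and chromosome 12 had 104 higher and 323 lower of 748 (-0.33 and -0.36). In the other direction, chromosome 19 had 451 higher and 122 lower of 1003 (0.32 and 0.38) and chromosome 22 had 128 higher and 49 lower of 339 (0.24 and 0.24). DNA copy number was not measured in these samples.

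**Figure D3:**
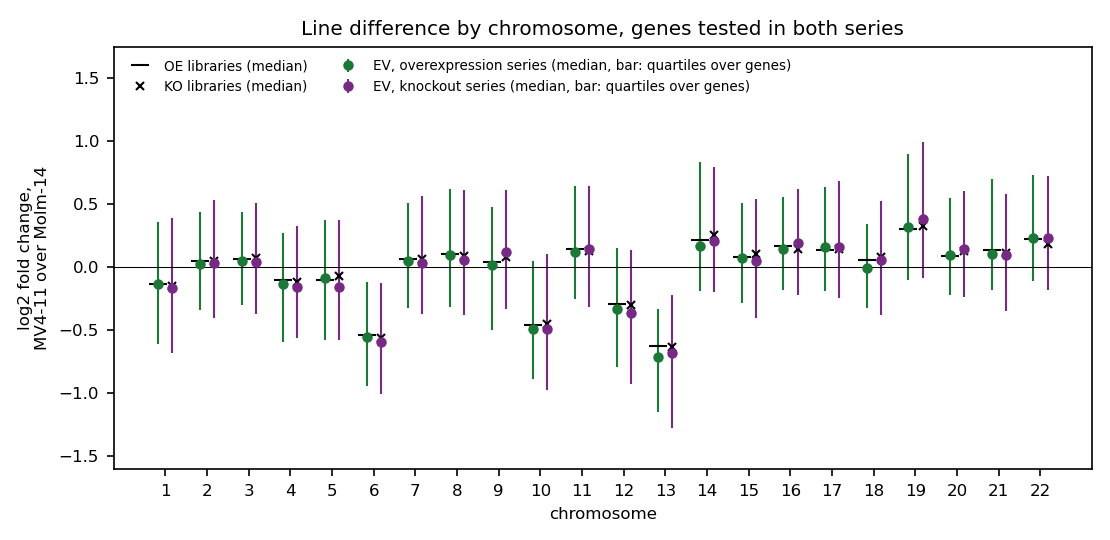
Median log2 fold change of MV4-11 EV over Molm-14 EV for the genes tested in both tables on each autosome, with the overexpression and the knockout series side by side, bars at the quartiles over genes, and the medians of the same contrast in the OE and KO libraries as dashes and crosses. Chromosomes 13, 6, 10 and 12 lie lowest and chromosomes 19 and 22 highest in both tables.

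On chromosome 6 a group of replication-dependent histone genes went against the rest of that chromosome. H3C7, a histone H3 gene (ENSG00000277775, chromosome 6, 26250142 to 26250635, minus strand), was at 149, 125 and 164 CPM in MV4-11 EV in the overexpression series and 379, 230.4 and 268 CPM in the knockout series, against 0, 0 and 0 and 0, 0 and 2 counts in Molm-14. H4C6, H2BC9 and H2BC10 were likewise at 3 counts or fewer in every Molm-14 EV library, H3C6 had means of 3.40 and 6.81 CPM in MV4-11 and 0 in Molm-14, and H3C8 had means of 165 and 254 CPM against 0 and 0.213. Between them, H1-3 was present in both lines and higher in MV4-11 (1.97 and 1.24), as was H4C8 at the edge (0.28 and 0.49). At lower chromosome positions than all of these, H2BC3 had counts of 427, 337 and 376 in MV4-11 EV against 9, 5 and 5 in Molm-14 EV in the overexpression series and 1698, 1101 and 988 against 4, 8 and 2 in the knockout series (log2 fold changes 5.75 and 8.02), and H2BC6 was higher as well (5.82 and 6.09). THP-1 expressed H3C7, H4C6, H2BC9 and H2BC10, with H3C7 at 142 ± 13.2 CPM (SD, n = 3).

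Most other histone genes of chromosome 6 were lower in MV4-11. Of the 47 tested, 12 were higher and 27 lower, with medians of -0.41 and -0.56. The lower share of 57.4% was close to the 58.6% over all tested genes of chromosome 6. H1-5, a linker histone, was lower at -0.68 and -0.76, and H2BC17 at -0.96 and -1.10. Histone genes are near-identical copies, so values of single genes depend on how reads were assigned.

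At the CDKN2A locus on chromosome 9, CDKN2B, which encodes the inhibitor p15INK4b, also had 0 counts in all Molm-14 EV libraries, against 39, 29 and 71 and 31, 28 and 15 counts in MV4-11 EV. CDKN2B-AS1, a gene that spans CDKN2B, was higher in MV4-11 (2.28 and 2.98) but had counts in every Molm-14 EV library. These were 91, 101 and 96 in the overexpression series and 4, 9 and 4 in the knockout series. The MV4-11 EV libraries had 425, 678 and 459 and 63, 44 and 31. MTAP, a methionine salvage enzyme next to CDKN2A, was present in both lines. It was at 103, 112 and 99.6 CPM in MV4-11 EV against 50.1, 48.5 and 47.0 CPM in Molm-14 EV in the overexpression series, and 107, 99.6 and 104 CPM against 66.3, 66.2 and 59.9 CPM in the knockout series, higher in MV4-11 (log2 fold changes 1.11 ± 0.06 and 0.69 ± 0.10, FDR = 1.25e-12 and 1.70e-06). KLHL9, which lies between the interferon alpha genes IFNA5 and IFNA6, was higher as well (1.01 and 0.99). In THP-1 the means of KLHL9, CDKN2A and CDKN2B were 0 and that of MTAP was 0.0604 CPM.

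Many genes of monocytic differentiation were higher in MV4-11, and several genes of primary granules were higher in Molm-14. LYZ, lysozyme, a product of maturing myeloid cells, was at 861, 1086 and 528 CPM in MV4-11 EV against 98.9, 101.7 and 94.5 CPM in Molm-14 EV in the overexpression series, and 7529, 5966 and 6223 CPM against 332, 285 and 347 CPM in the knockout series, with MV4-11 above Molm-14 throughout (log2 fold changes 3.07 ± 0.35 and 4.35 ± 0.12, FDR = 5.94e-05 and 1.01e-21). CSF1R, the receptor for macrophage colony-stimulating factor, was at 66.7, 62.4 and 77.6 CPM in MV4-11 EV against 6.31, 5.44 and 4.33 CPM in Molm-14 EV in the overexpression series, and 28.8, 52.0 and 55.2 CPM against 1.35, 2.36 and 3.03 CPM in the knockout series (log2 fold changes 3.69 ± 0.13 and 4.27 ± 0.31, FDR = 1.84e-13 and 1.65e-09). The innate receptors TLR2 (2.35 and 3.08) and TLR4 (3.63 and 2.96), the inhibitory receptors LILRB1 (4.26 and 2.81), LILRB2 (4.85 and 2.21) and LILRB4 (3.13 and 2.65) and the scavenger receptor CD36 (2.23 and 3.04) were higher. CLEC10A, a macrophage lectin, had counts of 379, 321 and 564 in MV4-11 EV against 0, 1 and 1 in Molm-14 EV in the overexpression series and 283, 183 and 165 against 3, 9 and 4 in the knockout series. In all, 12 of 23 tested monocyte and macrophage markers (37 listed) were higher, 2 lower and 3 opposite in the tables, with medians of 1.51 and 1.67. The opposite ones were S100A8 (-2.26 and 0.63), S100A9 (-1.43 and 1.36) and CD4 (-0.36 and 0.60). Without replicate 3 of MV4-11 EV in the overexpression series the first median became 0.93, and the call of the integrin ITGAX was lost there (1.51 became 0.93, FDR = 0.186), as it was without any library of that table but MV4-11 EV replicate 2 and without Molm-14 EV replicate 3 of the knockout series (FDR = 0.0588). The defining markers CD14 and FCGR3A were at or near 0 in both lines. ITGAM (CD11b) was lower in MV4-11 (-1.53 and -2.55), and CX3CR1 was lower (-2.24 and -0.48), with the knockout value at -0.29 (FDR = 0.126) without Molm-14 EV replicate 3.

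MPO, myeloperoxidase, the defining enzyme of primary granules, was at 7.82, 7.67 and 6.48 CPM in MV4-11 EV against 52.5, 46.7 and 53.9 CPM in Molm-14 EV in the overexpression series, and 9.05, 9.16 and 8.63 CPM against 93.0, 84.1 and 80.7 CPM in the knockout series. It was several fold lower in MV4-11, without overlap (log2 fold changes -2.80 ± 0.10 and -3.26 ± 0.12, FDR = 2.57e-15 and 5.83e-19). The serine proteases ELANE (-3.74 and -1.17) and CTSG (-3.47 and -0.64), the bactericidal protein BPI (-2.72 and -2.61) and the ribonuclease RNASE2 (-1.90 and -0.61) were lower too. Of 13 tested granule proteins (24 listed) 3 were higher, among them the proteoglycan SRGN (0.32 and 0.54), and 6 were lower, with medians of -0.31 and 0.04. The list as a whole thus had no common direction. Its sum was 4032 to 4644 CPM in MV4-11 EV against 5344 to 5522 CPM in Molm-14 EV for the overexpression series. The order of the sums was reversed for the knockout series, at 13411.5 to 15722 CPM in MV4-11 EV against 5852 to 6697 CPM in Molm-14 EV.

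**Figure D4:**
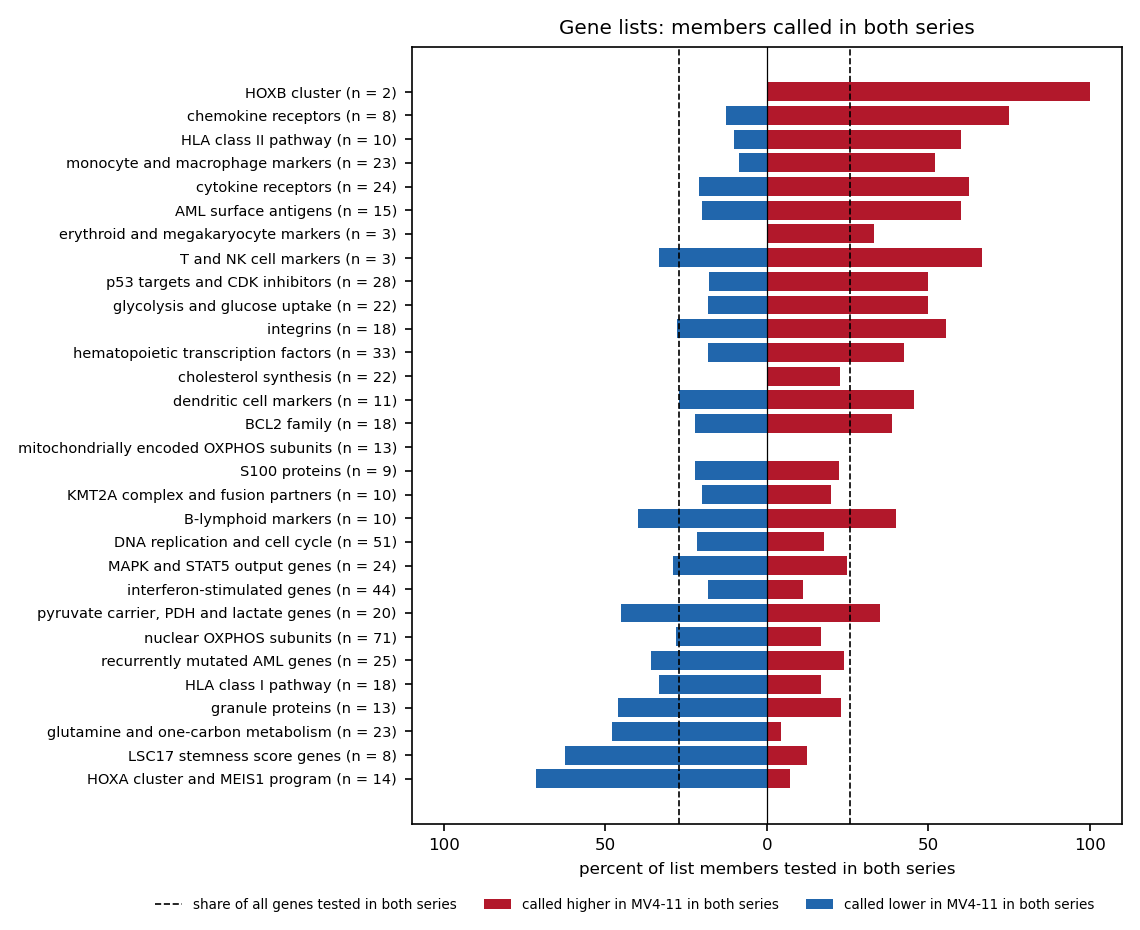
Share of the tested genes of each gene list that were higher or lower in MV4-11 in both tables, with the shares over all 13163 tested genes (25.7% and 27.2%) marked as dashed lines. The HOXB, chemokine receptor and cytokine receptor lists have large shares of higher genes, and the HOXA program, the LSC17 genes and the glutamine and one-carbon list large shares of lower genes.

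Several transcription factors of myeloid maturation were higher in MV4-11. SPI1 (PU.1), which directs monocyte fate, was at 198, 192 and 201 CPM in MV4-11 EV against 121, 126 and 126 CPM in Molm-14 EV in the overexpression series, and 52.1, 61.4 and 70.8 CPM against 25.2, 32.7 and 24.3 CPM in the knockout series (log2 fold changes 0.66 ± 0.06 and 1.15 ± 0.14, FDR = 2.92e-09 and 1.44e-07). CEBPB, which acts in monocyte and emergency granulocyte formation, was at 46.4, 38.2 and 75.7 CPM in MV4-11 EV against 11.7, 14.3 and 11.7 CPM in Molm-14 EV in the overexpression series, and 42.9, 30.2 and 39.5 CPM against 11.9, 11.7 and 10.02 CPM in the knockout series (log2 fold changes 2.08 ± 0.30 and 1.74 ± 0.14, FDR = 0.000242 and 9.61e-12). CEBPD (1.29 and 1.54), CEBPE (1.96 and 2.07), RUNX2 (1.70 and 1.22), RUNX3 (2.22 and 2.02), LMO2 (1.57 and 1.64) and the lymphoid and dendritic factor IRF4 (9.05 and 5.93) were higher. The stem and progenitor factor GATA2 (-0.90 and -3.44), IKZF2 (-1.99 and -3.16), MITF (-3.78 and -2.82) and BCL11A (-1.99 and -0.74) were lower. Leaving out MV4-11 EV replicate 2 moved GATA2 in the overexpression series to -0.54, its call was lost without Molm-14 EV replicate 3 (FDR = 0.0716), and BCL11A in the knockout series moved to -0.44 without Molm-14 EV replicate 2. Of 33 hematopoietic transcription factors, 14 were higher and 6 lower, with medians of 0.24 and 0.29. MYC, the growth regulator, did not pass in both (-0.33 and -0.01).

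Of 24 cytokine receptors 15 were higher and 5 lower, with medians of 0.63 and 0.60. FLT3, the receptor mutated in both lines, was at 487, 439.8 and 556 CPM in MV4-11 EV against 301, 289.6 and 298 CPM in Molm-14 EV in the overexpression series, and 771, 707 and 699 CPM against 606, 549.9 and 643 CPM in the knockout series (log2 fold changes 0.74 ± 0.08 and 0.28 ± 0.08, FDR = 4.21e-07 and 0.00574). KIT, the stem cell factor receptor, was at 31.2, 38.8 and 22.4 CPM in MV4-11 EV against 1.01, 0.837 and 0.819 CPM in Molm-14 EV in the overexpression series, and 14.6, 19.5 and 20.0 CPM against 0.336, 1.13 and 0.923 CPM in the knockout series (log2 fold changes 5.11 ± 0.28 and 4.38 ± 0.24, FDR = 1.48e-09 and 5.95e-15). IL2RA, the alpha chain of the interleukin-2 receptor, was at 9.15, 8.97 and 17.6 and 7.31, 7.001 and 5.71 CPM in MV4-11 and had counts of 0, 0 and 0 and 0, 0 and 1 in Molm-14. CSF2RB, the shared beta chain of the interleukin-3 and GM-CSF receptors (2.23 and 1.69), IFNAR2 (1.67 and 1.90), IL10RA (1.15 and 1.42), IL1RAP (1.06 and 1.44), TGFBR2 (1.20 and 1.80) and TNFRSF1B (0.86 and 1.85) were higher. IL18R1, the interleukin-18 receptor, was the strongest in the other direction, with counts of 0, 0 and 0 against 62, 74 and 67 and 0, 0 and 0 against 29, 39 and 43. IL15RA (-0.90 and -2.45) and IL6R (-1.27 and -0.37) were lower.

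Genes downstream of FLT3 signaling were divided. PIM1, a STAT5-induced kinase, was at 205, 158 and 315 CPM in MV4-11 EV against 17.3, 18.5 and 16.6 CPM in Molm-14 EV in the overexpression series, and 148, 119.7 and 135 CPM against 24.2, 20.9 and 24.0 CPM in the knockout series, higher in MV4-11 (log2 fold changes 3.69 ± 0.31 and 2.55 ± 0.12, FDR = 6.22e-06 and 1.14e-16). The STAT5 targets CISH (0.61 and 0.79), PIM3 (0.49 and 0.51) and SOCS3 (0.57 and 1.13) were higher, whereas SOCS2 was lower (-2.61 and -2.81), as was CCND2, cyclin D2 (-1.54 and -2.33). Several feedback inhibitors of the RAS-MAPK pathway were lower. SPRED1 was at 35.7, 35.4 and 36.4 and 48.3, 48.5 and 43.5 CPM in Molm-14 EV and had counts of 0, 1 and 0 and 0, 0 and 0 in MV4-11 EV. SPRY2 (-1.95 and -3.38) and the ETS factor ETV5 (-0.75 and -0.65) were lower, and SPRY4 was lower by a log2 fold change of -2.09 and 56.3-fold (95% exact Poisson interval 15.6 to 465). DUSP6, a phosphatase of ERK, was higher by a small margin (0.25 and 0.33), and its call in the overexpression series was lost without MV4-11 EV replicate 3 (0.15, FDR = 0.106) and without Molm-14 EV replicate 3 (0.22, FDR = 0.0714). Of the 24 MAPK and STAT5 output genes 6 were higher and 7 lower, with medians of -0.02 and -0.39.

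Survival genes of the BCL2 family differed at several members. BCL2, the target of venetoclax, was at 433, 453 and 447 CPM in MV4-11 EV against 232, 221 and 211 CPM in Molm-14 EV in the overexpression series, and 404, 444 and 401 CPM against 230.2, 258 and 246 CPM in the knockout series, higher in MV4-11 (log2 fold changes 1.01 ± 0.05 and 0.77 ± 0.08, FDR = 3.12e-13 and 2.09e-09). BAX, the pore-forming effector of apoptosis, was at 144, 141 and 123 CPM in MV4-11 EV against 50.3, 47.3 and 49.3 CPM in Molm-14 EV in the overexpression series, and 98.7, 87.2 and 97.3 CPM against 32.3, 30.3 and 31.8 CPM in the knockout series (log2 fold changes 1.47 ± 0.07 and 1.59 ± 0.11, FDR = 9.42e-13 and 1.39e-12). MCL1, another anti-apoptotic member, was at 214, 201 and 226 CPM in MV4-11 EV against 298, 289 and 306 CPM in Molm-14 EV in the overexpression series, and 287, 289 and 280.3 CPM against 417, 415 and 425 CPM in the knockout series, lower in MV4-11 (log2 fold changes -0.48 ± 0.06 and -0.55 ± 0.07, FDR = 5.14e-07 and 7.43e-08). BCL2A1, the inducible anti-apoptotic member, had counts of 0, 0 and 1 in MV4-11 EV against 33, 16 and 16 in Molm-14 EV in the overexpression series and 2, 0 and 0 against 11, 9 and 15 in the knockout series, and its fitted log2 fold change in the knockout series moved from -3.90 to -6.47 without MV4-11 EV replicate 1, the 1 MV4-11 library there with counts. The BH3-only proteins BMF (1.45 and 1.47) and BBC3 (PUMA, 0.82 and 0.79) were higher, and BIK (-1.03 and -1.10) was lower. HRK, another BH3-only protein, had 0 counts in MV4-11 EV and was at least 32.0-fold and 10.1-fold lower than in Molm-14 EV, while BCL2L10 belonged to the MV4-11 set, at 17.3, 20.0 and 17.2 and 31.6, 23.4 and 28.2 CPM. Of 18 members, 7 were higher and 4 lower, with medians of 0.25 and 0.08.

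Of 28 p53 targets and CDK inhibitors, 14 were higher and 5 lower, with medians of 0.48 and 0.55. Besides CDKN2A and CDKN2B, the higher genes held the DNA repair genes XPC (1.165 and 1.71) and DDB2 (1.04 and 1.30), the ferredoxin reductase FDXR (1.17 and 1.83), the antiproliferative gene BTG2 (1.29 and 1.24), the ribonucleotide reductase subunit RRM2B (0.71 and 1.19) and the CDK inhibitors CDKN1B (0.66 and 0.60) and CDKN1C (2.88 and 1.92). CDKN1A (p21), the best known p53 target, was at 86.6, 65.9 and 109 CPM in MV4-11 EV against 185, 180.1 and 197 CPM in Molm-14 EV in the overexpression series, and 137, 112 and 123 CPM against 185, 164 and 173 CPM in the knockout series, lower in MV4-11 (log2 fold changes -1.11 ± 0.21 and -0.49 ± 0.10, FDR = 0.00155 and 9.57e-05), as were the death receptor FAS (-1.99 and -1.24), SESN1 (-1.19 and -0.67) and CDKN2C (-2.10 and -1.77). MDM2, a ubiquitin ligase, did not pass in both (-0.24 and 0.09).

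The 51 genes of DNA replication and the cell cycle were nearly even, with 9 higher and 11 lower and medians of 0.05 and -0.16, both shares below those of all genes. CCNE1, cyclin E1, was higher (0.55 and 0.88) and CDK1 was lower (-0.61 and -0.75). MKI67, the proliferation marker, did not pass in both (-0.11 and 0.15). Among 25 recurrently mutated AML genes 6 were higher and 9 lower, with medians of -0.01 and -0.08. JAK2 was higher (0.80 and 1.21), and WT1 (-1.504 and -1.10), NPM1 (-0.64 and -0.91), NRAS (-0.43 and -0.67) and PTPN11 (-0.43 and -0.56) were lower.

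Metabolic genes, the subject of the study, already differed between the lines without treatment. MPC1 was lower in MV4-11 at baseline, at 30.8, 26.05 and 32.0 CPM in MV4-11 EV against 43.8, 42.7 and 43.1 CPM in Molm-14 EV in the overexpression series, and 56.4, 58.3 and 53.7 CPM against 80.0, 79.0 and 72.9 CPM in the knockout series (log2 fold changes -0.55 ± 0.08 and -0.46 ± 0.09, FDR = 1.10e-05 and 7.02e-05), and its partner MPC2 was lower too (-0.25 and -0.38). MPC1 lies on chromosome 6, where the medians over all tested genes were -0.55 and -0.59. The malic enzymes differed in opposite directions. ME1, the cytosolic form, was at 0.521, 0.241 and 0 CPM in MV4-11 EV against 16.7, 17.3 and 18.2 CPM in Molm-14 EV in the overexpression series, and 0.464, 0.808 and 0.308 CPM against 12.1, 17.1 and 16.4 CPM in the knockout series, and ME3, a mitochondrial form, was at 5.44, 6.13 and 4.83 CPM in MV4-11 EV against 0, 0.0598 and 0 CPM in Molm-14 EV in the overexpression series, and 15.8, 14.5 and 13.4 CPM against 0.168, 0.113 and 0 CPM in the knockout series. The groups did not overlap for either enzyme, and ME3 was one of the 45 genes of the MV4-11 set. PC, pyruvate carboxylase, which feeds pyruvate into the citric acid cycle as oxaloacetate, was at 8.69, 7.04 and 10.9 CPM in MV4-11 EV against 46.6, 42.7 and 45.5 CPM in Molm-14 EV in the overexpression series, and 12.1, 9.02 and 8.02 CPM against 31.1, 31.5 and 31.0 CPM in the knockout series, lower in MV4-11 (log2 fold changes -2.35 ± 0.11 and -1.67 ± 0.14, FDR = 4.55e-13 and 9.63e-11).

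In the same list LDHB, which favors lactate to pyruvate, was lower (-0.66 and -0.74), as were the monocarboxylate transporter SLC16A1 (-0.53 and -1.13) and the pyruvate dehydrogenase (PDH) subunit DLAT (-0.30 and -0.77). SLC16A7, another monocarboxylate transporter, had counts of 0, 5 and 0 in MV4-11 EV against 572, 536 and 602 in Molm-14 EV in the overexpression series and 0, 0 and 1 against 187, 318 and 267 in the knockout series. LDHA did not pass in both (-0.02 and 0.09). The PDH phosphatase subunits PDP1 (1.40 and 1.80) and PDPR (1.08 and 1.08), the PDH kinase PDK2 (0.49 and 0.44) and the PDH component PDHX (1.40 and 0.91) were higher, and PDP2 was lower (-1.28 and -1.39). Of 20 tested genes of the pyruvate carrier, PDH and lactate list 7 were higher and 9 lower, with medians of -0.04 and -0.13.

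Glycolysis and glucose uptake genes were more often higher in MV4-11, with 11 higher and 4 lower of 22 and medians of 0.42 and 0.35. HK1, hexokinase 1, was at 62.0, 60.4 and 57.4 CPM in MV4-11 EV against 20.4, 20.4 and 20.4 CPM in Molm-14 EV in the overexpression series, and 67.9, 76.9 and 80.3 CPM against 23.5, 24.4 and 20.0 CPM in the knockout series (log2 fold changes 1.56 ± 0.08 and 1.72 ± 0.13, FDR = 5.88e-13 and 8.57e-12). HK3, the myeloid hexokinase (2.11 and 3.52), HK2 (0.73 and 0.54) and the glucose transporter SLC2A1 (GLUT1, 1.97 and 1.52) were higher. The bifunctional regulators of phosphofructokinase differed by isoform: PFKFB2 had 0 counts in Molm-14 EV and was at least 84.4-fold and 40.3-fold higher in MV4-11, PFKFB4 was higher (2.97 and 2.27) and PFKFB3 was lower (-1.63 and -1.90). TXNIP and ARRDC4, which restrain glucose uptake, were higher (0.60 and 1.18 and 1.02 and 1.34). ENO1 and PKM, the abundant lower-glycolysis enzymes, did not pass in both (0.04 and -0.19 and 0.05 and -0.21).

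Glutamine and one-carbon genes were lower in MV4-11, with 1 higher and 11 lower of 23 and medians of -0.44 and -0.80. SHMT2, the mitochondrial serine hydroxymethyltransferase, was at 166, 144 and 192 CPM in MV4-11 EV against 394, 410.0 and 422 CPM in Molm-14 EV in the overexpression series, and 187, 140.0 and 161 CPM against 669, 568 and 611 CPM in the knockout series (log2 fold changes -1.29 ± 0.10 and -1.92 ± 0.10, FDR = 1.44e-07 and 3.64e-15). GOT1 (-2.10 and -2.64), PSAT1 (-1.55 and -1.77), PSPH (-0.97 and -1.56) and the glutamine transporter SLC38A1 (-2.34 and -2.45) were lower. PHGDH, the first enzyme of serine synthesis, was at 12.4, 5.93 and 51.4 CPM in MV4-11 EV against 165, 168 and 169.8 CPM in Molm-14 EV in the overexpression series, and 6.38, 7.001 and 7.401 CPM against 166, 164 and 169 CPM in the knockout series. Replicate 3 of MV4-11 EV in the overexpression series was the highest of its group, and the groups still did not overlap (log2 fold changes -2.88 ± 0.78 and -4.59 ± 0.12, FDR = 0.0104 and 1.44e-21). SLC7A11, the cystine transporter, was at 3.996, 1.40 and 26.3 CPM in MV4-11 against 95.5, 105 and 98.2 CPM in that table, and its fold change of -3.28 became -5.26 without replicate 3 (-3.92 in the knockout series). The list sum was 3031, 2716 and 3649 CPM in the MV4-11 EV libraries and 4359, 4428 and 4428 CPM in those of Molm-14.

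**Figure D5:**
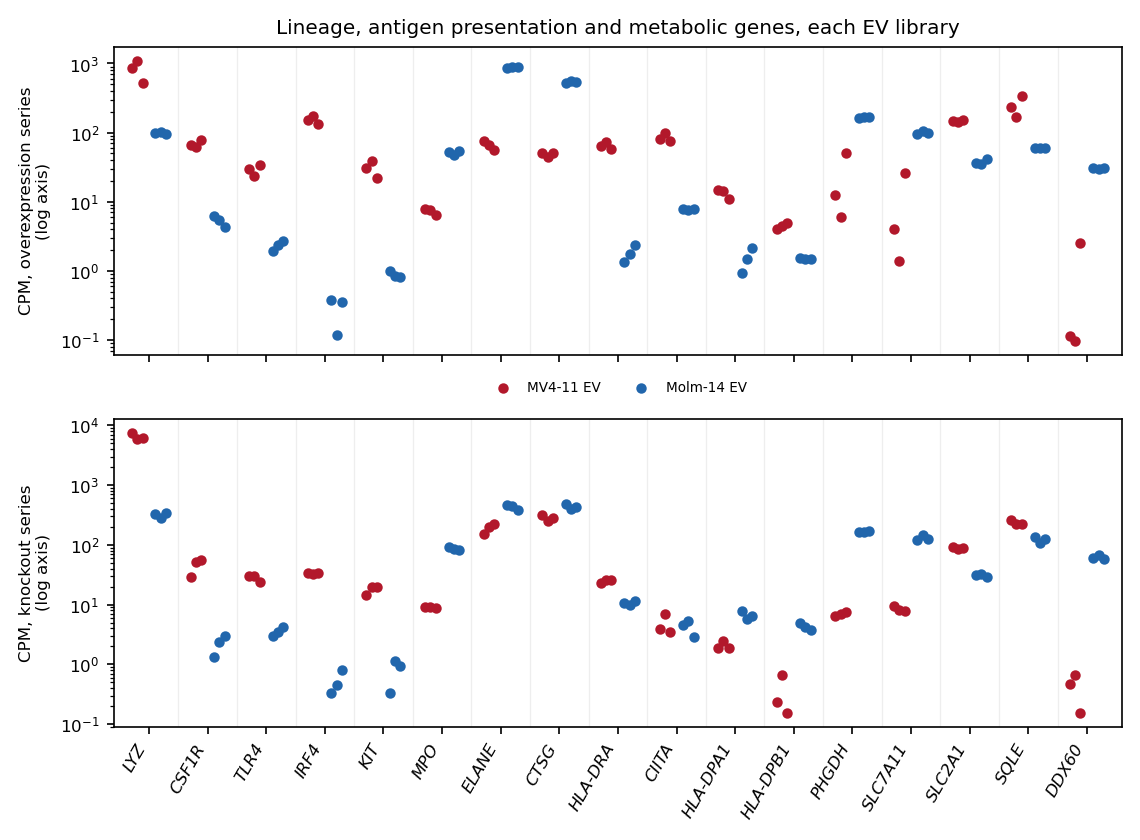
CPM in each of the 12 EV libraries on a log axis for genes of myeloid lineage, antigen presentation, interferon response and metabolism, with 1 point per library and 3 per line and table. MPO, PHGDH and DDX60 lie lower and LYZ, CSF1R and KIT lie higher in MV4-11 in both tables, and HLA-DPA1 and HLA-DPB1 change places between the tables.

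Subunits of oxidative phosphorylation (OXPHOS) encoded in the nucleus were 12 higher and 20 lower of 71, with medians of 0.01 and -0.04. Both shares were close to or below those of all genes. The ATP synthase subunit ATP5F1B (-0.57 and -0.56) and the succinate dehydrogenase subunits SDHA (-0.60 and -0.52), SDHC (-0.54 and -0.80) and SDHD (-0.63 and -0.54) were lower, and the complex I subunits NDUFA3 (0.82 and 1.11), NDUFC2 (0.78 and 0.77) and NDUFV3 (0.81 and 0.61) were higher. None of the 13 mitochondrially encoded subunits passed in both tables in the same direction by the edgeR test, 0 higher and 0 lower did so at an unadjusted p under 0.05, and 1 was called higher by DESeq2. MT-CO1 was at 0.22 and 0.41 and MT-ND1 at -0.42 and -0.54.

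Of 22 cholesterol synthesis genes 5 were higher and 0 lower by edgeR and by DESeq2 (5 and 1 at an unadjusted p under 0.05), with medians of opposite sign (0.52 and -0.39). The higher genes included SQLE (2.02 and 0.94), FDFT1 (1.002 and 0.31), TM7SF2 (1.61 and 1.84) and the regulator SREBF2 (0.68 and 0.38). The list sum was 2972, 2018 and 3887 CPM in MV4-11 EV and 1795, 1762 and 1775 CPM in Molm-14 EV in the overexpression series, with replicate 3 of MV4-11 highest, and the first median became 0.19 without it. In the knockout series the sum was 2353 to 2462 CPM in MV4-11 EV and 2444 to 2648 CPM in Molm-14 EV.

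Genes of HLA class II antigen presentation were higher in MV4-11 for the most part but not uniformly. HLA-DRA, the alpha chain of HLA-DR, was at 63.8, 72.4 and 57.7 CPM in MV4-11 EV against 1.33, 1.73 and 2.40 CPM in Molm-14 EV in the overexpression series, and 23.4, 25.7 and 26.2 CPM against 10.6, 9.90 and 11.5 CPM in the knockout series (log2 fold changes 5.14 ± 0.14 and 1.24 ± 0.16, FDR = 7.27e-17 and 1.21e-07). CD74, the class II chaperone (2.68 and 1.29), HLA-DRB1 (4.44 and 1.59), HLA-DMA (3.25 and 1.54) and HLA-DQB1 (2.07 and 1.15) were higher, and HLA-DOB was lower (-2.68 and -3.11). Of 10 tested (13 listed), 6 were higher, 1 lower and 2 opposite in the tables, with medians of 3.18 and 1.19. HLA-DPA1 and HLA-DPB1 were the opposite ones. HLA-DPB1 was at 4.05, 4.39 and 4.89 CPM in MV4-11 EV against 1.51, 1.49 and 1.46 CPM in Molm-14 EV in the overexpression series, and 0.232, 0.673 and 0.154 CPM against 4.88, 4.28 and 3.82 CPM in the knockout series, so that MV4-11 was above Molm-14 in the first table (log2 fold change 1.57 ± 0.25, FDR = 1.78e-05) and below it in the second (log2 fold change -3.53 ± 0.44, FDR = 7.18e-08). CIITA, the master regulator of class II genes, was higher in the overexpression series (log2 fold change 3.44 ± 0.14, FDR = 1.22e-11) and did not pass in the knockout series (log2 fold change 0.18 ± 0.34, FDR = 0.673). HLA genes are polymorphic and similar in sequence, so values of single members are uncertain.

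Of the 18 genes of the class I pathway 3 were higher and 6 lower, with medians of -0.14 and -0.11. HLA-B (1.155 and 1.502) and HLA-F (2.83 and 0.995) were higher. The peptidases ERAP1 (-0.90 and -1.39) and ERAP2 (-2.70 and -4.22) and the immunoproteasome subunits PSMB8 (-0.66 and -0.83) and PSMB9 (-0.72 and -1.29) were lower.

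Interferon-stimulated genes included 5 higher and 8 lower of 44, with medians of -0.26 and -0.82. Both shares were below those of all genes, and together they made 29.5% against 52.9%. The tables differed in how many of the 44 passed, with 14 for the overexpression series but 36 for the knockout series. The antiviral membrane proteins IFITM1 (5.36 and 4.30), IFITM2 (2.24 and 2.40) and BST2 (1.80 and 1.48) were higher, and the ubiquitin ligase HERC5 (-2.01 and -2.29) and the RNA sensor partner DDX60 (-5.14 and -7.07) were lower. DDX60 was at 0.116, 0.0965 and 2.53 CPM in MV4-11 EV in the overexpression series, where replicate 3 was the high one, and at 31.1, 30.1 and 30.8 CPM in Molm-14 EV. Without that library the fold change was -8.09 and the list median moved from -0.26 to -0.65. OAS3, an antiviral synthetase, was at 0.347, 0.0965 and 3.65 CPM in MV4-11 EV against 5.55, 7.83 and 6.84 CPM in Molm-14 EV in the overexpression series, and 0.116, 0.269 and 0 CPM against 7.23, 9.45 and 8.57 CPM in the knockout series and passed in the knockout series alone (log2 fold changes -2.36 ± 1.79 and -5.82 ± 0.40, FDR = 0.282 and 8.06e-13).

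Adhesion and surface proteins differed in many members. Of 18 integrins tested (26 listed) 10 were higher and 5 lower, with medians of 0.60 and 0.76, the second 0.71 with genes at their bounds. ITGAL (CD11a), the alpha chain of LFA-1, was at 1925, 1959 and 1888 CPM in MV4-11 EV against 343, 346 and 364 CPM in Molm-14 EV in the overexpression series, and 876, 893 and 929.6 CPM against 154, 172 and 156 CPM in the knockout series (log2 fold changes 2.45 ± 0.04 and 2.48 ± 0.11, FDR = 4.36e-20 and 3.12e-17). ITGA2B (3.99 and 5.61), ITGB7 (2.41 and 3.599) and ITGA4 (0.66 and 0.72) were higher, and the laminin receptor chain ITGA6 (-1.93 and -4.27), ITGA1 (-2.96 and -2.62) and ITGAV (-1.43 and -1.04) were lower. Of 8 chemokine receptors tested (18 listed) 6 were higher and 1 lower, with medians of 2.66 and 1.38. CCR2, the monocyte chemoattractant receptor (3.08 and 2.74), CCR1 (2.90 and 1.40), CXCR2 (2.54 and 2.68) and the homing receptor CXCR4 (0.66 and 0.51) were among the higher ones.

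Of 15 AML surface antigens tested (19 listed) 9 were higher and 3 lower, with medians of 1.87 and 1.71. ANPEP (CD13) was at 3.53, 3.14 and 3.36 CPM in MV4-11 EV against 0.820, 0.418 and 0.468 CPM in Molm-14 EV in the overexpression series, and 3.95, 5.12 and 5.397 CPM against 0.336, 0.225 and 0.132 CPM in the knockout series (log2 fold changes 2.55 ± 0.29 and 4.31 ± 0.73, FDR = 2.35e-07 and 8.57e-05). CD33, the target of gemtuzumab, was at 168, 167 and 174 CPM in MV4-11 EV against 50.9, 48.3 and 48.2 CPM in Molm-14 EV in the overexpression series, and 179, 165 and 168 CPM against 61.4, 63.7 and 58.9 CPM in the knockout series (log2 fold changes 1.79 ± 0.05 and 1.48 ± 0.08, FDR = 1.89e-16 and 3.34e-15). CLEC12A (1.87 and 3.91), CD44 (2.00 and 1.71), CD82 (2.93 and 2.45), CD276 (5.94 and 4.08) and FOLR2 (3.02 and 2.66) were higher, and CD70 (-1.37 and -0.83), the don't-eat-me signal CD47 (-0.92 and -0.44) and PTPRC (-0.996 and -0.81) were lower. CD38 was opposite in the tables (0.65 and -2.70). Of 9 S100 proteins tested (18 listed) 2 were higher and 2 lower, with medians of 0.05 and 0.63, of which S100A4 was higher (1.83 and 2.00). S100A8 and S100A9, the subunits of calprotectin, were opposite in the tables. S100A9 was at 2.14, 2.36 and 0.707 CPM in MV4-11 EV against 5.11, 4.42 and 4.74 CPM in Molm-14 EV in the overexpression series, and 33.3, 21.0 and 24.98 CPM against 11.1, 7.88 and 12.4 CPM in the knockout series (log2 fold changes -1.43 ± 0.31 and 1.36 ± 0.17, FDR = 0.000675 and 3.46e-07).

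Lineage markers outside the monocytic and granulocytic lines were few. Of 24 B-lymphoid markers 10 were tested, 4 higher and 4 lower, with medians of 0.11 and -0.61. The coreceptor CD72 (4.19 and 3.04) and the interleukin-7 receptor IL7R (0.71 and 1.69) were higher, and PAX5, the B cell commitment factor (-5.63 and -6.75), and the adaptor BANK1 (-3.24 and -4.64) were lower. PAX5 had counts of 40, 35 and 48 in MV4-11 EV against 1648, 1851 and 2044 in Molm-14 EV in the overexpression series and 3, 3 and 3 against 222, 496 and 310 in the knockout series. BLK, a B cell kinase, had counts of 46, 44 and 26 in MV4-11 EV against 0, 2 and 0 in Molm-14 EV in the overexpression series and 29, 15 and 20 against 0, 0 and 0 in the knockout series. MS4A1 was not among the genes tested. Of 19 T and NK cell markers 3 were tested, with the granule protein NKG7 (0.98 and 1.41) and the T cell factor BCL11B, a low-count gene, higher, the adhesion molecule NCAM1 (CD56, -8.20 and -6.12) lower and medians of 0.98 and 1.41. The 19 markers summed to 24.8 to 29.8 CPM in MV4-11 EV against 194 to 197 CPM in Molm-14 EV in the overexpression series. In the knockout series they summed to 31.2 to 33.4 CPM against 158 to 207 CPM, so the sums were higher in Molm-14. Of 20 erythroid and megakaryocyte markers 3 were tested and only ITGA2B was higher, with medians of 0.56 and 0.61. Of 11 dendritic cell markers tested (17 listed) 5 were higher and 3 lower, with medians of 0.74 and 0.71, where TCF4, a plasmacytoid factor (1.72 and 3.62), was higher and BATF3 (-2.09 and -2.64) and NRP1 (-2.16 and -1.23) lower.

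Among the genes with the highest CPM, which is not corrected for gene length, and at least a 2-fold difference, FTL, the ferritin light chain, was at 2097, 2111 and 1743 CPM in MV4-11 EV against 877, 951 and 916 CPM in Molm-14 EV in the overexpression series, and 4283, 3025 and 3488 CPM against 1285, 1064 and 1054 CPM in the knockout series (log2 fold changes 1.12 ± 0.11 and 1.67 ± 0.12, FDR = 1.05e-05 and 2.00e-11). EMB, a chaperone of monocarboxylate transporters (1.602 and 1.88), the choline transporter SLC44A1 (5.15 and 5.43), the histone variant MACROH2A1 (1.56 and 1.40) and ITGAL completed the 5 higher genes. EEF1A1, translation elongation factor 1 alpha, was at 6882, 6725 and 6855 CPM in MV4-11 EV against 15009.5, 15011 and 14609.8 CPM in Molm-14 EV in the overexpression series, and 1024, 874 and 849.9 CPM against 2509, 2214 and 2409 CPM in the knockout series (log2 fold changes -1.13 ± 0.04 and -1.38 ± 0.10, FDR = 1.57e-15 and 9.11e-13). The nucleolar helicase DDX21 (-1.09 and -1.39), the bifunctional tRNA synthetase EPRS1 (-1.32 and -1.64), the putative histone demethylase JMJD1C (-1.44 and -1.39) and the ribosomal protein RPS12 (-1.41 and -1.55) completed the 5 lower genes. EEF1A1 and RPS12 lie on chromosome 6 and DDX21 and JMJD1C on chromosome 10, where the medians were low.

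The 156 genes that passed in opposite directions are the ones for which the EV libraries of the tables gave different answers. By the size of the smaller change, the leading ones were SERHL2, a serine hydrolase-like gene (2.87 and -1.98), HLA-DPA1 (3.11 and -1.69), HLA-DPB1, KDELR3, a retrieval receptor of the endoplasmic reticulum (1.49 and -3.87), and ECHDC2, a mitochondrial hydratase family member (1.74 and -1.46). ECHDC2 was at 21.3, 22.3 and 22.5 CPM in MV4-11 EV against 7.13, 7.05 and 5.56 CPM in Molm-14 EV in the overexpression series, and 4.29, 4.44 and 4.32 CPM against 11.6, 12.3 and 12.1 CPM in the knockout series. The KDELR3 groups overlapped in the overexpression series, where its value became 2.75 without Molm-14 EV replicate 2 and its call was lost without replicates 1 or 3 of either line (1.10 to 1.23), and the SERHL2 call in the knockout series was lost without MV4-11 EV replicates 1 or 2 (-1.88 and -1.46) and without Molm-14 EV replicate 3 (-1.47, FDR = 0.16). The vector, the depth, the share of mitochondrial counts and the number of genes listed differed between the tables together, so their parts in these genes cannot be told apart.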

How the data were processed

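RNA was extracted with DNase treatment, depleted of ribosomal RNA and made into stranded total RNA libraries. Per the labels and the study's methods, the authors trimmed reads with cutadapt 1.16, aligned them to GRCh38 with STAR 2.7.6a and assigned them to genes with featureCounts 1.6.3. The deposited values are raw counts per gene and library, in 1 table for the overexpression series and 1 for the knockout series. The strand setting of the counting is not given in the sources used here, so overlapping antisense genes may share reads. The tables list different numbers of genes and were fitted separately.

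Genes were filtered by group with filterByExpr, scaled by TMM and tested with edgeR 4.0.16 (R 4.3.3) by the robust quasi-likelihood test over all libraries of a table, with 1 mean per line and vector and Benjamini-Hochberg adjustment over all genes tested. A gene was called at an FDR of 5%, and agreement required a call of the same sign in both tables. Genes on X and Y (523 and 491 tested) were then left out. Values after ± are standard errors for log2 fold changes and SD for means. Gene positions come from GENCODE 44 on GRCh38 and sequences from RefSeq GRCh38.p14.

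Samples were grouped by the line and vector in the labels. The libraries and gene lists were chosen with earlier results of these data known. Named were list members with the largest agreeing differences or a defining role, the 10 protein-coding genes per direction with the largest agreeing difference and at least 100 mean counts, the 5 leading genes called in opposite directions, genes with at most 3 counts in 1 line, and the 5 per direction with the highest CPM and at least a 2-fold difference. The zinc finger, histone and chromosome 9 groups were chosen after values were seen, as were the list members named for not passing. For a group at 0, folds use 3 counts per library as the floor. Scripts were tested on simulated data. Alternatives were DESeq2 1.42.0, RLE and upper-quartile factors, other filters, the EV libraries alone, a replicate block, removal of X, Y and mitochondrial genes, an FDR of 1%, a test against a 1.5-fold difference (glmTreat) and leaving out each EV library. Some genes are not reported here by name.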

Additional observations from a re-analysis of the deposited data

Results flagged for a closer look

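The value of MV4-11 EV over Molm-14 EV had opposite signs in the overexpression and the knockout series for 13 genes of the lists or named in the text, with every library of 1 line above every library of the other in each table. The tables were fitted separately, so the difference between their fold changes was not tested. The log2 fold changes in the overexpression and then the knockout series were 3.11 and -1.69 for HLA-DPA1 and 1.57 and -3.53 for HLA-DPB1, which form 1 class II molecule. They were 0.65 and -2.70 for CD38, an ectoenzyme that consumes NAD, and -0.36 and 0.60 for CD4, which monocytes also carry. The calprotectin subunits were at -2.26 and 0.63 (S100A8) and -1.43 and 1.36 (S100A9). Among metabolic genes the values were -0.16 and 0.23 for ALDOA, a glycolytic aldolase, -0.66 and 0.40 for the ATP synthase subunit ATP5F1D, 1.32 and -0.40 for INSIG1, a brake on sterol synthesis, and 1.74 and -1.46 for ECHDC2. The other genes were CDT1, a replication licensing factor (0.27 and -0.33), SERHL2 (2.87 and -1.98) and TET2, a DNA demethylase (-0.15 and 0.61). Of the 16 list members or named genes called in opposite directions, 3 had groups that overlapped in a table and are not among these. Without 1 EV library, calls were lost for ALDOA in both tables (without MV4-11 replicate 2 or Molm-14 replicates 2 or 3 of the overexpression series, and without replicate 3 of either line of the knockout series, at -0.15 to -0.11 and 0.18 to 0.21), for TET2 in the overexpression series (replicates 1 and 2 of both lines, -0.16 to -0.12) and, in the knockout series, for ATP5F1D (MV4-11 replicate 3, 0.29), CDT1 (Molm-14 replicate 2, -0.27) and SERHL2.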

How the results depend on the processing

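Each count of genes over a whole table stayed within 1.5 times its value under DESeq2, RLE and upper-quartile factors, both other filters, the EV libraries alone, the replicate block and the removal of X, Y and mitochondrial genes. The genes that agreed in the tables ranged over these and an FDR of 1% from 5834 to 7301. The test against a 1.5-fold difference moved most counts, to 5358 genes (2801 higher, 2557 lower) for the overexpression and 4301 (2122 and 2179) for the knockout series, 3163 agreeing (1617 and 1546), 10 opposite and 2670 that passed again in the OE and KO libraries. This follows from its stricter null. An FDR of 1% left 74 opposite genes. Upper-quartile factors moved the median of all genes to 0.04 and 0.06. Leaving out 1 EV library at a time gave 10380 to 10739 genes for the overexpression and 7968 to 8290 for the knockout series, 6611 to 6875 agreeing (3192 to 3324 higher, 3415 to 3551 lower), 2630 to 2691 of at least 2-fold, 125 to 166 opposite and 5701 to 5837 in the OE and KO libraries.

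Labels give the groups the same replicate numbers, but same-numbered libraries of the lines correlated in their deviations at -0.025 to 0.008 in the overexpression series, while for the knockout series the values were 0.27, 0.26 and -0.052 for replicates 1 to 3. Replicates 1 and 2 of that table thus correlated best with their own number and replicate 3 did not, so pairing was not met for every pair and was not used. With the replicate block on the EV libraries alone, 10463 and 8889 genes passed in the tables and 6979 agreed, against 10630, 7873 and 6510 without the block in the same libraries, and 213 were opposite.

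Of single gene values over all these settings, 8882 kept their direction and side of the threshold, 188 kept the direction but no longer passed, 16 newly passed and 27 changed sign. The last were values of at most 0.18 in size of 8 genes that had not passed in that table. In the overexpression series PBX3 was at 0.015 with upper-quartile factors, 0.00012 without X, Y and mitochondrial genes and 0.0053, 0.0089 and 0.043 with 1 library left out, CDK6 at 0.0097 and 0.012 and LDHA at 0.0070 (upper-quartile factors, and for CDK6 also without MV4-11 EV replicate 1). For the knockout series, MYB and MYC were at 0.0011 and 0.0044 with DESeq2, 0.0015 and 0.0048 with RLE factors, 0.057 and 0.060 with upper-quartile factors, 0.027 and 0.030 in the EV libraries alone, 0.022 and 0.029 with the replicate block, and 0.027 to 0.060 and 0.020 to 0.032 with 1 library left out. There CIITA was at -0.18 without MV4-11 EV replicate 2 and -0.023 without Molm-14 EV replicate 3, MKI67 at -0.022 without MV4-11 EV replicate 2 and -0.057 without Molm-14 EV replicate 1, and AFF1 at 0.13 without Molm-14 EV replicate 2. Of the counts over lists, 1293 stayed within 1.5 times and 71 did not, 30 of them under the 1.5-fold test. The knockout series had less depth, with 3 counts at up to 0.504 CPM, which limits the precision for genes of a few counts.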
